A study of Mus musculus with 6 samples.

Results

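The p53 response and senescence arrest genes are 10 named genes, namely Trp53, Cdkn1a, Cdkn2a, Cdkn2b, Mdm2, Ccng1, Gadd45b, Bbc3, Fas and Zmat3. They were chosen by name, with earlier results of these data known, and all 10 were found among the 31319 genes of the count matrices. They were measured by single-nucleus RNA-seq in organoids, which are epithelial cultures grown from jejunal crypts of C57BL/6 mice aged 8 to 12 weeks. In 3 samples the organoids had grown in quiescent conditioned medium (QCM), collected from serum-deprived mouse embryonic fibroblasts. In the other 3 samples they had grown in senescent conditioned medium (SCM), collected from fibroblasts made senescent by X-rays or doxorubicin. Which of these agents was used for the sequenced samples is not given in the sources used here. Both media were serum-free, concentrated and mixed with organoid growth medium, and only the medium, not the fibroblasts, was added to the organoids. The comparison of the media asks whether the secretions of senescent cells pass an arrest program on to epithelial cells that did not receive the damage themselves.

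The tumour suppressor p53, encoded by Trp53, is a transcription factor that is held at a low level by the ubiquitin ligase Mdm2 and is stabilised by DNA damage and other stress, so that its activity is controlled mainly at the protein and much less at the RNA level. Its targets include Mdm2 itself, which closes a feedback loop, and Cdkn1a, which encodes the cyclin-dependent kinase inhibitor p21 and stops the cell cycle. Cdkn2a, which encodes p16 and the Mdm2 inhibitor p19Arf, and Cdkn2b, which encodes p15, hold back the kinases that inactivate the retinoblastoma protein, and with Cdkn1a they are widely used marks of senescence. In the intestinal epithelium the p53 pathway is best known for the death and arrest of crypt cells after irradiation.

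On the mouse genome GRCm38, with GENCODE M21 annotation, Trp53 lies at chr11:69580359-69591873, Mdm2 at chr10:117688875-117710758 and Cdkn1a at chr17:29090976-29100727. Cdkn2a (chr4:89274471-89294653) and Cdkn2b (chr4:89306299-89311039) share a locus, and Ccng1 lies at chr11:40748552-40755311, Gadd45b at chr10:80930073-80932204 and Zmat3 at chr3:32334792-32366014. The cell death genes Bbc3 and Fas lie at chr7:16308393-16318205 and chr19:34290666-34327772. All 10 are protein-coding, and no other annotated gene overlaps any of them.

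The 6 samples held 38154 nuclei. QCM replicates 1, 2 and 3 held 3791, 7930 and 10144 nuclei, and SCM replicates 1, 2 and 3 held 430, 5026 and 10833. The totals ranged from 4071926 unique molecular identifiers (UMIs, each standing for one captured RNA molecule) in SCM replicate 1 to 41035733 in QCM replicate 1. Markers of fibroblasts summed to 1.75 to 6.12 counts per 1000000 UMIs (CPM) in QCM and 2.05 to 3.42 CPM in SCM, and the 5 immune markers in the files to at most 4.47 CPM. Of the 7 lists of epithelial markers 2 did not overlap between the media, where 7.08% of single genes tested did not overlap in CPM. The fetal markers were at 60.8 to 109 CPM in QCM and 174 to 649 in SCM. The enteroendocrine markers were at 127.5 to 197 CPM in QCM and 42.0 to 127.3 in SCM, so that their ranges nearly touched. The part of both lists in the comparison of the media was not tested. QCM replicate 1 stood apart with 15.2% of its UMIs in ribosomal protein genes, against 2.77% to 10.996% in the other samples. SCM replicate 1 stood apart in size, and 7 nuclei of the unnamed cluster 14 held 32.2% of its UMIs. It also shared 175 of its 430 cell barcodes (40.7%) with QCM replicate 1, whereas the other 14 pairs of libraries shared at most 36. Only 40 of these 175 barcodes fell in the same cluster in both libraries, and profiles with the same barcode correlated no better (median r of 0.386) than profiles paired freely (0.384). The main results are therefore also given without the shared barcodes.

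Over all nuclei, no member passed the test between the media. With edgeR's quasi-likelihood test on UMIs summed per sample, 0 of 10 members were called at an adjusted p under 0.05 (0% of the 19046 genes tested), and 0 of 10 passed at an unadjusted p under 0.05 (4.55% of all genes tested). The estimates of 4 members lay above 0 (48.6% of all genes) and those of 6 below (51.4%), with a median log2 fold change of -0.17 against -0.01 over all genes tested. DESeq2 called 21 of all genes, 20 of them higher in SCM, and none of the members. On simulated data a 2-fold change was called by edgeR for 4% of the altered genes, so that changes of that size would mostly be missed. Values per sample over all nuclei are CPM after scaling by the trimmed mean of M values (TMM), and in such sums a change in the share of a cell type and a change in RNA per cell cannot be told apart.

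**Figure D1:**
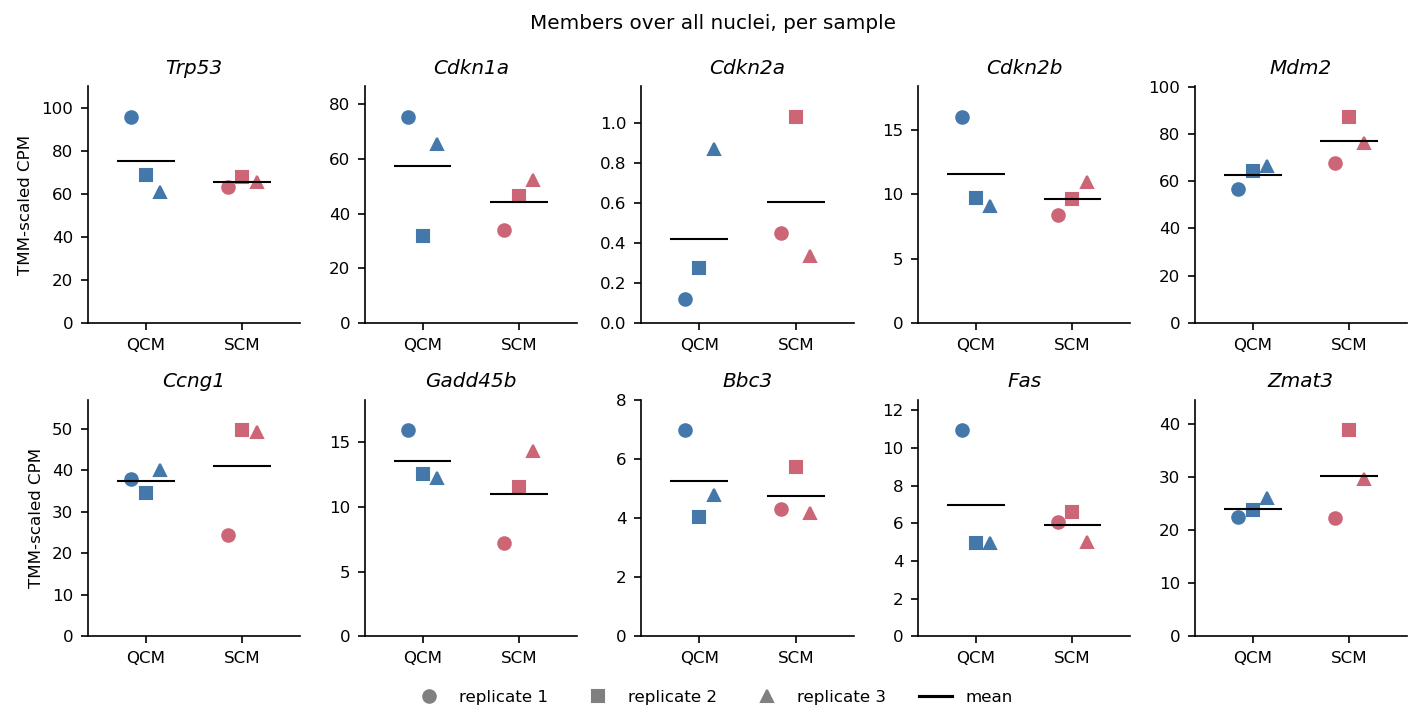
TMM-scaled CPM (vertical axes, from 0) of each member over all nuclei in the 3 QCM samples (blue) and 3 SCM samples (red), with the replicate given by the symbol and the mean of each medium by a bar. The media overlapped for every member except Mdm2, whose 3 SCM samples lay between 67.6 and 87.2 and whose 3 QCM samples lay between 56.7 and 66.3.

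Of the core pair, Trp53 was at 95.9, 69.1 and 60.9 TMM-scaled CPM in QCM replicates 1, 2 and 3 and at 63.3, 67.8 and 65.5 in SCM replicates 1, 2 and 3. The high mean of QCM came from replicate 1, and the remaining 5 samples lay close together whatever the medium. The log2 fold change, SCM minus QCM, was -0.20 (SE 0.20, edgeR adjusted p = 0.929), and without QCM replicate 1 it was 0.031. Mdm2 was at 56.7, 64.3 and 66.3 TMM-scaled CPM in QCM and at 67.6, 87.2 and 76.0 in SCM. Every SCM sample thus exceeded every QCM sample, as for 3.65% of all genes tested, and in no member did every SCM sample lie below every QCM sample (3.25% of all genes). Mdm2 was the only one of the 10 members without overlap, against 6.9% of all genes, and also the only one in CPM without TMM scaling (7.08%). The means were 62.4 ± 5.07 and 76.9 ± 9.87 TMM-scaled CPM (SD, n = 3 each), with a log2 fold change of 0.30 (SE 0.17, edgeR unadjusted p = 0.107, adjusted p = 0.927) and a 95% interval of 0.944-fold to 1.61-fold. Its estimate stayed above 0 under all 18 settings tried, between 0.19 and 0.45, where the 0.45 was obtained with scaling by library size alone, which moved the median over all genes to 0.14.

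Of the 3 kinase inhibitors, Cdkn1a was at 75.4, 31.8 and 65.5 TMM-scaled CPM in QCM and at 34.1, 46.5 and 52.2 in SCM. The QCM samples thus spanned the whole range of the SCM samples. The log2 fold change was -0.37 (SE 0.33, edgeR adjusted p = 0.929) with a 95% interval of 0.458-fold to 1.30-fold. It lay below 0 under 16 of 18 settings, down to -0.72 without the nuclei of highest UMI totals. It lay above 0 with replicates 2 and 3 alone (0.022) and in a fit that also held each sample's share of ribosomal protein UMIs (0.33). Without QCM replicate 2, the lowest QCM sample, it was -0.66 (SE 0.22, edgeR unadjusted p = 0.0226, adjusted p = 0.406). In that fit 11.8% of all genes tested were at an unadjusted p under 0.05. Cdkn2b was at 16.0, 9.70 and 9.08 TMM-scaled CPM in QCM and at 8.36, 9.59 and 10.98 in SCM, where again only QCM replicate 1 was high. Its log2 fold change was -0.26 (SE 0.28, edgeR adjusted p = 0.929), and 0.067 without QCM replicate 1. Cdkn2a was barely detected, with 4, 7 and 17 UMIs in QCM and 2, 23 and 9 in SCM, or 62 in all. Its log2 fold change of 0.63 had an SE of 0.82 (edgeR adjusted p = 0.930) and an interval of 0.417-fold to 5.71-fold, so that a change of several fold was not detectable with these samples. The p16 and p19Arf transcripts share their 3′ end and could not be separated by these counts.

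Ccng1, which encodes cyclin G1, was at 37.8, 34.6 and 40.0 TMM-scaled CPM in QCM and at 24.4, 49.6 and 49.2 in SCM. SCM replicate 1 was the lowest of the 6 samples and the other 2 SCM samples the highest, so that the log2 fold change of 0.14 (SE 0.27, edgeR adjusted p = 0.949) became 0.40 without SCM replicate 1. Zmat3, an RNA-binding zinc finger protein, was at 22.5, 23.8 and 26.0 TMM-scaled CPM in QCM and at 22.4, 38.8 and 29.8 in SCM. Here SCM replicate 1 lay beside the lowest QCM sample and the other 2 SCM samples above all QCM samples, and the log2 fold change was 0.34 (SE 0.23, edgeR adjusted p = 0.929). It was 0.12 without SCM replicate 2 and 0.51 without SCM replicate 1 (edgeR unadjusted p = 0.0425, adjusted p = 0.920). In the fit without SCM replicate 1, 2.15% of all genes tested were at an unadjusted p under 0.05. Gadd45b, a stress-induced member of the growth arrest and DNA damage family, was at 15.9, 12.5 and 12.3 TMM-scaled CPM in QCM and at 7.23, 11.5 and 14.3 in SCM, with a log2 fold change of -0.28 (SE 0.28, edgeR adjusted p = 0.929).

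The pair of cell death genes gave the same picture. Bbc3, which encodes the BH3-only protein PUMA, was at 6.96, 4.05 and 4.77 TMM-scaled CPM in QCM and at 4.29, 5.74 and 4.18 in SCM (log2 fold change of -0.15, SE 0.32, edgeR adjusted p = 0.957). Fas, a death receptor, was at 10.9, 4.95 and 4.98 TMM-scaled CPM in QCM and at 6.10, 6.59 and 4.99 in SCM (log2 fold change of -0.25, SE 0.37, edgeR adjusted p = 0.936). In both genes QCM replicate 1 was the highest of the 6 samples. Without it the estimates were 0.13 for Bbc3 and 0.26 for Fas. Leaving out the shared barcodes left the direction of all 10 estimates as it was, between -0.37 for Cdkn1a and 0.83 for Cdkn2a.

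**Figure D2:**
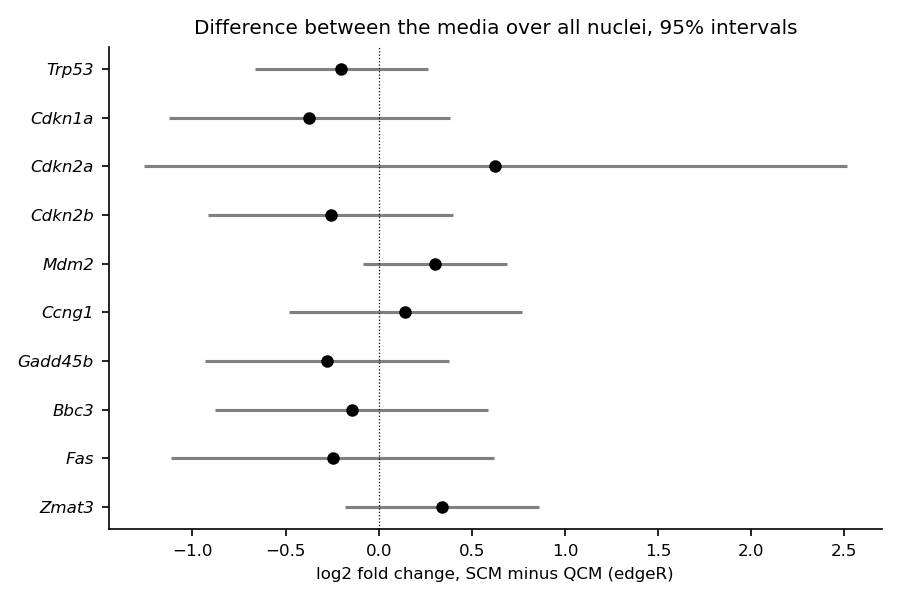
log2 fold change, SCM minus QCM (horizontal axis), of each member over all nuclei with its 95% interval from the edgeR fit. All 10 intervals include 0, and that of Cdkn2a, with 62 UMIs in all, is the widest.

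Other genes of the pathway were read from 5 lists. Of 27 further p53 targets, all were tested and 0 were called (19 estimates above 0 and 8 below, median log2 fold change of 0.04). The most abundant of them were Rps27l, a ribosomal protein paralog whose reads may be shared with close copies and whose level was highest in QCM replicate 1, the library rich in ribosomal protein UMIs (log2 fold change of -1.21, SE 0.55), the apoptosome gene Apaf1 (0.28, SE 0.16), the stress sensor Sesn1 (0.16, SE 0.19) and the pro-apoptotic Bax (-0.51, SE 0.32), each with an edgeR adjusted p of 0.927 to 0.930. Of the 27 targets 3 had no overlap of the media with SCM higher and 0 with SCM lower, against 3.65% and 3.25% of all genes tested. At an unadjusted p under 0.05 were 2 with a higher and 1 with a lower estimate in SCM, against 1.46% and 3.08% of all genes. These were Trp53inp1 (log2 fold change of 0.73, SE 0.21, edgeR unadjusted p = 0.00793), Eda2r (0.87, SE 0.29, unadjusted p = 0.0169) and Gadd45a (-0.86, SE 0.37, unadjusted p = 0.0492), named after their values were seen, and each had an edgeR adjusted p of 0.927. Of 12 regulators of p53, 10 were tested and 0 called, with a median of 0.11 and the kinase gene Hipk2 (0.28, SE 0.25) and Mdm4 (0.27, SE 0.19) as the most abundant. Of 15 CDK inhibitor and RB pathway genes 0 were called (median of -0.02), the most abundant being Cdk6 (0.43, SE 0.24).

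The genes that an arrest would lower did not pass the test either, with the same low recovery of 2-fold changes. Of 19 S phase and mitosis genes 15 were tested and 0 were called. Of their estimates 3 lay above 0 and 12 below, against 48.6% and 51.4% of all genes tested. The median log2 fold change was -0.20, against -0.01 over all genes tested. Mcm3, Mcm5, Mcm6 and Mcm7 were not found by symbol among the genes, so that they were not measured here. The most abundant were the mitotic genes Kif11 (log2 fold change of 0.0044, SE 0.17), Cenpe (0.096, SE 0.27) and Cenpf (-0.0034, SE 0.22), followed by the mitotic kinase gene Cdk1 (-0.58, SE 0.30). Cdk1 was at 134, 69.9 and 63.2 TMM-scaled CPM in QCM and at 59.7, 51.6 and 67.6 in SCM, where the only sample far from the rest was QCM replicate 1. Gins2, a replication gene named after its values were seen, was the only one at an unadjusted p under 0.05. This held, with SCM lower, for 3.08% of all genes tested. Gins2 was also the only one without overlap (3.25% of all genes with SCM lower). It was at 29.0, 22.8 and 21.8 TMM-scaled CPM in QCM and at 16.0, 14.6 and 16.4 in SCM (log2 fold change of -0.65, SE 0.19, edgeR unadjusted p = 0.0106, adjusted p = 0.927). Of 15 genes of the senescence-associated secretory phenotype or used as marks of senescence, 8 were tested and 0 called (6 estimates above 0 and 2 below, median of 0.52). Lmnb1, which encodes lamin B1 and is known to be lost in senescent cells, was at 122, 132 and 107 TMM-scaled CPM in QCM and at 118, 127 and 121 in SCM (log2 fold change of 0.02, SE 0.16, edgeR adjusted p = 0.99).

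To separate a change within a cluster from a change in the mix of clusters, the media were compared within the clusters that the authors deposited. A change in the mix of cell types inside a cluster is not separated in this way. Of the 15 clusters 13 had enough nuclei in at least 2 samples of each medium. Of 84 pairs of a member and a cluster tested, 0 were called (0% of 130109 gene and cluster pairs) and 2 were at an unadjusted p under 0.05 (5.76% of all pairs). Both were in cluster 3, which has no name by the markers. There Gadd45b was at 22.5, 18.9 and 20.9 TMM-scaled CPM in QCM and at 4.15, 10.6 and 11.6 in SCM (log2 fold change of -1.03, SE 0.37, edgeR unadjusted p = 0.0191, adjusted p = 0.638). Zmat3 was at 17.4, 20.5 and 23.5 TMM-scaled CPM in QCM and at 54.0, 35.6 and 26.3 in SCM (0.79, SE 0.34, edgeR unadjusted p = 0.0408, adjusted p = 0.638). The media did not overlap for either gene, and the SCM replicate 1 values rested on 1 and 13 UMIs. Of the 84 pairs 3 had no overlap with SCM higher (6.23% of all pairs) and 3 with SCM lower (6.19%).

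The direction within clusters differed between members. Mdm2 had an estimate above 0 in 11 of 12 clusters, between -0.03 and 0.47 with a median of 0.22, and Zmat3 in 10 of 11, between -0.14 and 1.09 with a median of 0.38. Over all gene and cluster pairs 49.3% were above 0 and 50.7% below. Trp53 had an estimate above 0 in 0 of 12 clusters, between -0.41 and -0.03, and Cdkn1a in 2 of 12, between -0.86 and 0.46. Clusters share the same 6 samples, so that these counts do not come from independent measurements. Mdm2 was above 0 in 7 of the 9 clusters that could be fitted without SCM replicate 2 and in 8 of 9 without SCM replicate 3. With replicates 2 and 3 alone Trp53 and Cdkn1a were above 0 in 4 of 12 clusters each. Without the shared barcodes 86 pairs of a member and a cluster were tested, of which 0 were called. At an unadjusted p under 0.05 were 3 of them, against 5.50% of all pairs. Mdm2 was then above 0 in 12 of 12 clusters and Trp53 in 2 of 12. Ccng1 was above 0 in 9 of 12 clusters, Cdkn2b in 2 of 8, Gadd45b in 2 of 9, Bbc3 in 1 of 4 and Fas in 1 of 4, and Cdkn2a had too few counts to be tested in any cluster.

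**Figure D3:**
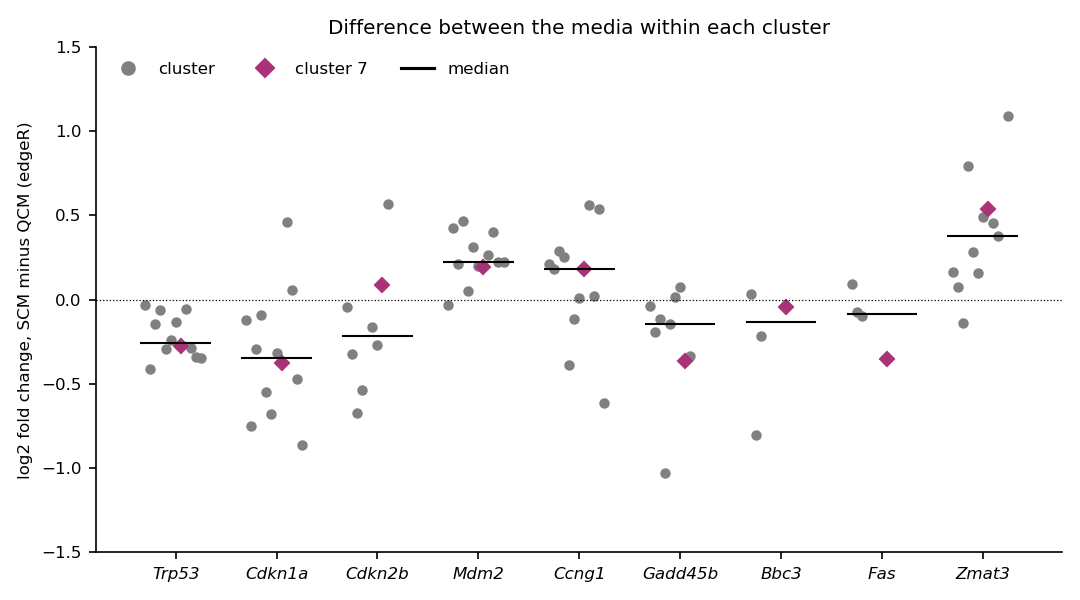
log2 fold change, SCM minus QCM (vertical axis), of 9 members within each cluster in which the member was tested (points, cluster 7 as a diamond), with the median over clusters as a bar. Mdm2 and Zmat3 lie mostly above 0 and Trp53 below 0 in all 12 of its clusters, while none of the 84 pairs was called.

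The levels of the members were then compared among the clusters. They are described by CPM without TMM scaling, as means over samples with at least 10 nuclei, for the 14 clusters with at least 4 such samples. Read against marker lists, cluster 7 was called fetal-like, cluster 8 enterocyte-like, cluster 11 tuft-like, clusters 9 and 10 enteroendocrine-like and cluster 6 goblet and Paneth-like, and no name was given to the rest. Among the unnamed, cluster 1 met 6 enterocyte, 3 goblet and 3 Paneth markers. Cluster 8 met 6 enterocyte markers, and cluster 6 met 7 goblet and 3 Paneth markers. Cluster 7 rested on 5 of 8 fetal markers, none of which was among its 10 leading genes, which included Fn1, Col4a1 and Col4a2 for matrix proteins. The clusters were made from the same nuclei, so that these levels are a description with no test.

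Cluster 7 had the highest mean of the 14 clusters for 6 of the 9 members with a mean of at least 1 CPM over all nuclei, against 8.85% of all such genes. It was also the highest for Cdkn2a, which lay under that mean at 0.529 CPM. In single samples it was the highest cluster in 6 of 6 samples for Ccng1, 5 of 6 for Cdkn2a, 4 of 6 for Mdm2 and Bbc3, 3 of 6 for Cdkn1a and Zmat3 and 1 of 6 for Trp53. Mdm2 was at 135 ± 41.6 CPM (SD, n = 6) in cluster 7 and next at 81.3 in cluster 9, a gap larger than the SD, and was lowest in cluster 4 at 52.9. Ccng1 was at 84.0 ± 22.0 CPM (SD, n = 6) in cluster 7 and next at 49.1 in cluster 3, again a gap beyond the SD. Cdkn1a was at 101 ± 32.0 CPM (SD, n = 6) in cluster 7, at 71.2 in the enterocyte-like cluster 8 and lowest at 30.9 in cluster 2, where the gap between the leading pair was within the SD. Zmat3 was at 60.2 ± 28.1 CPM in cluster 7 and at 44.1 in cluster 13, also within the SD. Bbc3 was nearly tied, at 10.6 ± 6.59 CPM in cluster 7 and at 10.3 in cluster 3.

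Below cluster 7 the orders of Cdkn1a and Mdm2 differed. For Cdkn1a the enterocyte-like cluster 8 (71.2 ± 38.5 CPM) was followed by the enteroendocrine-like cluster 9 (64.6 ± 19.9 CPM) and clusters 3 and 1 (59.9 and 59.7 CPM), and the lower end was made up of the goblet and Paneth-like cluster 6 (40.6 ± 9.39 CPM) and clusters 12, 0 and 2 (37.8, 34.3 and 30.9 CPM). For Mdm2 the goblet and Paneth-like cluster 6 was near the top (75.2 ± 10.3 CPM) and clusters 1 and 4 were lowest (54.8 and 52.9 CPM). No neighbours within these orders differed beyond their SD, save cluster 7 for Mdm2.

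Trp53 itself was nearly level. Its means ran from 55.6 CPM in cluster 8 to 75.7 ± 13.6 CPM (SD, n = 6) in cluster 7, a ratio of 1.36, against ratios of 2.55 for Mdm2, 3.28 for Cdkn1a and 3.60 for Ccng1, and no neighbours in its order differed beyond their SD. Over 13 clusters the mean of Trp53 correlated with those of the other members between r = -0.539 for Cdkn2b and r = 0.594 for Ccng1. It was at r = 0.023 with Cdkn1a, 0.21 with Mdm2 and 0.540 with Cdkn2a. Among other pairs, Mdm2 correlated with Zmat3 at r = 0.895, Ccng1 with Gadd45b at r = 0.819 and Cdkn1a with Mdm2 at r = 0.611. These points share the same 6 libraries and are a description.

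The other 3 members had another leading cluster. Cdkn2b was highest in the enterocyte-like cluster 8 at 33.0 ± 16.2 CPM (SD, n = 6) and lowest in cluster 2 at 5.04, and cluster 8 led in 4 of 6 samples. Gadd45b was at 27.2 ± 13.1 CPM (SD, n = 4) in cluster 13 and at 25.2 in cluster 7. Fas was at 10.3 ± 12.7 CPM (SD, n = 6) in cluster 0, where SCM replicate 1 alone was at 35.9, and at 10.1 in cluster 8, so that no order could be read for it.

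**Figure D4:**
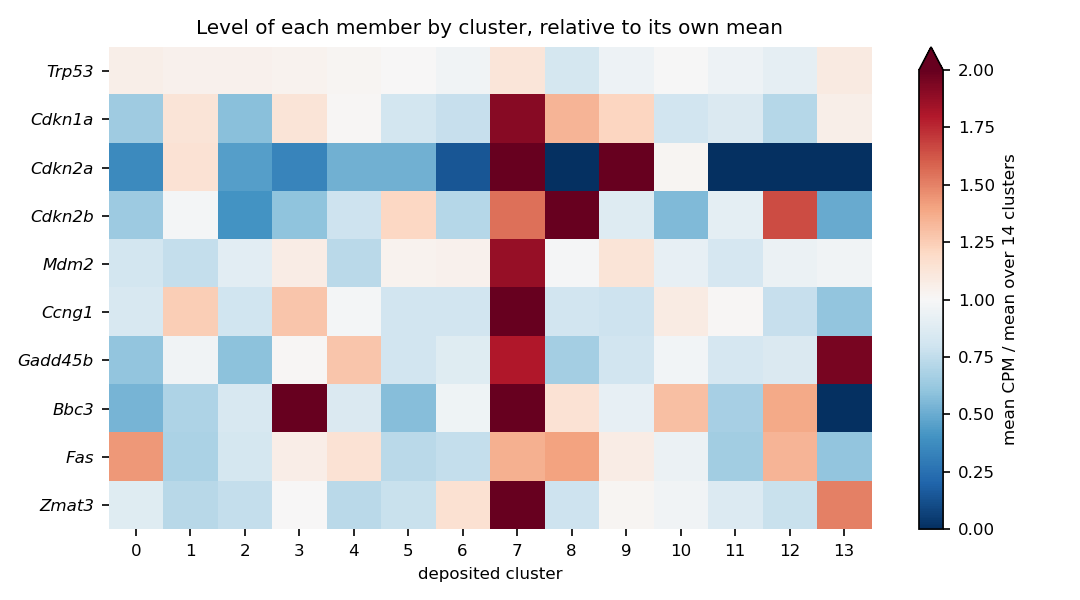
Mean CPM of each member (rows) in each of 14 clusters (columns), divided by that member's mean over the clusters, with colours ending at 2. Cluster 7 is the column with most members above 1, and the row of Trp53 stays near 1 throughout.

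Cluster 7 was then set beside the other nuclei of the same sample, a comparison chosen after the levels were seen. It held 1442 nuclei, 3.78% of all, and 2.72% to 3.82% of the nuclei of the QCM samples and 3.95% to 4.84% of those of the SCM samples. Of the 10 members 5 were higher in cluster 7 in 6 of 6 samples, namely Cdkn1a, Mdm2, Ccng1, Gadd45b and Zmat3, as were 6.87% of all genes with a mean of at least 1 CPM. Mdm2 was at 116, 117 and 139 CPM in cluster 7 of QCM replicates 1, 2 and 3 and at 78.1, 199 and 161 in SCM, against 43.9, 66.0 and 61.9 in the other nuclei of QCM and 73.2, 73.0 and 69.5 in those of SCM. Cdkn1a was at 94.96, 89.8 and 155 CPM in cluster 7 of QCM and at 58.6, 114 and 95.1 in SCM, against 60.6, 31.7 and 60.4 and 36.2, 37.3 and 49.0 in the other nuclei. Only SCM replicate 1, with 17 nuclei in cluster 7, came close to no difference for Mdm2, and the ratio of the means was 2.09 for Mdm2, 2.21 for Cdkn1a, 2.36 for Ccng1 and 2.49 for Zmat3. For Trp53 it was 1.09, with cluster 7 higher in 4 of 6 samples. Without the nuclei of highest UMI totals, 2 of the 10 members were higher in 6 of 6 samples. The ratio was then 1.62 for Mdm2, 1.35 for Cdkn1a, 1.40 for Ccng1 and 1.446 for Zmat3.

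Cdkn2a had 27 of its 62 UMIs in cluster 7, or 43.5% (exact 95% interval of 31.0% to 56.7%, covering counting error only), whereas cluster 7 held 6.26% of all UMIs. Of the 27 UMIs, QCM replicates 1, 2 and 3 gave 0, 4 and 2 and SCM replicates 1, 2 and 3 gave 1, 17 and 3, so that most came from SCM replicate 2, where cluster 7 held 16.4% of all UMIs. Without that library 10 of 39 Cdkn2a UMIs were in cluster 7, or 25.6% (exact 95% interval of 13.04% to 42.1%), which then held 4.45% of all UMIs. Cdkn2a was higher in cluster 7 than in the other nuclei in 5 of 6 samples. Without the nuclei of highest UMI totals it was higher in 3 of 6 (means of 2.96 and 0.305 CPM). With SCM replicate 1 left out as well, it was higher in 2 of 5 (means of 1.29 and 0.366 CPM). Within cluster 7 none of the 9 members tested passed the test between the media, and the log2 fold changes lay between -0.38 for Cdkn1a (SE 0.29, edgeR adjusted p = 0.650) and 0.54 for Zmat3 (SE 0.33, edgeR adjusted p = 0.550).

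**Figure D5:**
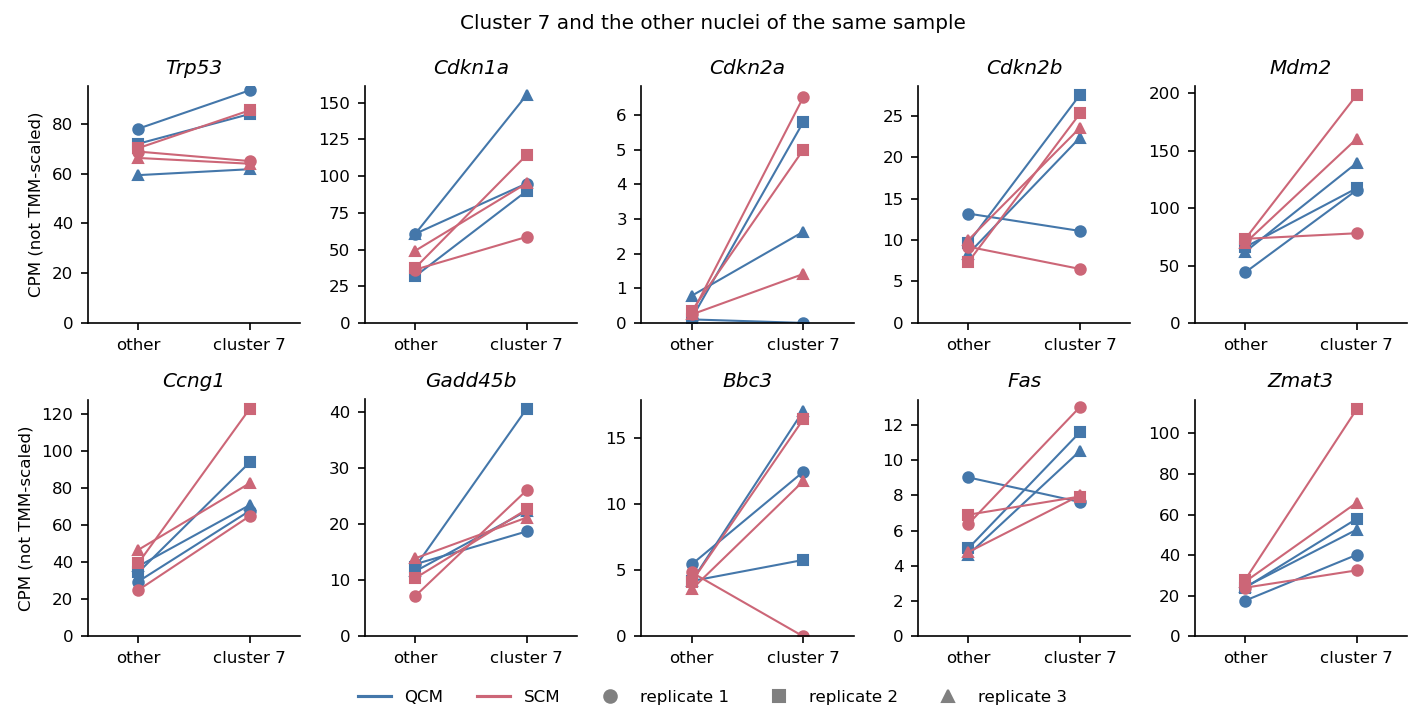
CPM without TMM scaling (vertical axes, from 0) of each member in the other nuclei and in cluster 7, with a line for each of the 6 samples (QCM blue, SCM red, replicate by symbol). Cdkn1a, Mdm2, Ccng1, Gadd45b and Zmat3 are higher in cluster 7 in 6 of 6 samples, and Trp53 in 4 of 6.

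Many further p53 targets were also higher in cluster 7. Of 27 targets 15 were higher in cluster 7 in 6 of 6 samples and 1 (Sesn1) was lower in all, against 6.87% and 13.9% of all genes, and the median ratio was 1.42 against 0.930 over all genes. Those higher in every sample were 3 of 27 without the nuclei of highest UMI totals, against 2.42% of all genes. They were 5 of 27 with each nucleus weighted equally, against 2.95%. Named after their values were seen, the receptor gene Eda2r was at 35.8 ± 10.1 CPM in cluster 7 and 5.62 ± 2.73 in the other nuclei (SD, n = 6), the stress cytokine Gdf15 at 62.7 ± 21.5 and 13.2 ± 1.83, and Trp53inp1 at 103 ± 41.5 and 24.6 ± 7.03. Genes of nucleotide excision repair on the same list, also named after their values were seen, did not move as one. Ddb2 was at 48.2 ± 7.45 and 65.5 ± 13.2 CPM and Xpc at 16.6 ± 7.29 and 21.7 ± 3.93, each higher in cluster 7 in 1 of 6 samples, whereas Ercc5 was at 52.2 ± 15.4 and 33.9 ± 7.83 CPM and higher in 6 of 6. Of the 10 regulators of p53 measured, 0 were higher and 2 were lower in 6 of 6 samples, against the same 6.87% and 13.9%, with a median ratio of 0.875. Of 15 S phase and mitosis genes 0 were higher and 8 were lower in 6 of 6 samples (median ratio of 0.824), against 13.9% of all genes. Those lower in every sample were 1 of 15 without the nuclei of highest UMI totals (median ratio of 0.951, against 4.84% of all genes) and 3 of 15 with each nucleus weighted equally (0.887, against 5.96%). Of the 15 CDK inhibitor and RB pathway genes 2 were higher in 6 of 6 samples and 2 lower (13.3% each, against 6.87% and 13.9% of all genes), with a median ratio of 0.889, so that the share of lower genes was about that of all genes. The higher genes were the cyclin gene Ccnd1, at 105 ± 70.0 and 44.6 ± 5.56 CPM (SD, n = 6), and Cdk6, and the lower genes were Rb1, which encodes the retinoblastoma protein, and the cyclin gene Ccne2.

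Ccng1 was at 67.9, 94.2 and 71.0 CPM in cluster 7 of QCM and at 65.1, 123 and 82.8 in SCM, against 29.7, 34.5 and 37.9 and 25.0, 39.5 and 46.8 in the other nuclei. Zmat3 was at 40.2, 57.9 and 52.6 CPM in cluster 7 of QCM and at 32.5, 112 and 65.9 in SCM, against 17.6, 24.0 and 24.4 and 24.0, 27.9 and 26.9 in the other nuclei. For both genes cluster 7 of every sample lay above the other nuclei of the same sample, with SCM replicate 2 the highest. The death genes were less even, since Bbc3 had no UMI in cluster 7 of SCM replicate 1 and Fas was at 7.62 CPM in cluster 7 and 9.02 in the other nuclei of QCM replicate 1.

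The number of genes higher in every sample, and in part the size of the difference, moved with the weight of the nuclei richest in UMIs. In SCM replicate 2, 83 of the 204 nuclei of cluster 7 were among the 6% of nuclei with the most UMIs and held 89.2% of its UMIs, and in the other samples such nuclei held 26.3% to 53.2%. Without these nuclei the members higher in every sample were 2 of 10, Cdkn1a (63.3 against 47.1 CPM, a ratio of 1.35) and Mdm2 (101 against 62.2 CPM, a ratio of 1.62), and the targets were 3 of 27 (median ratio of 1.23), against 2.42% of all genes. The ratio was then 1.40 for Ccng1 (higher in 5 of 6 samples), 1.446 for Zmat3 (4 of 6) and 0.996 for Gadd45b (2 of 6), so that no difference was left in the means of Gadd45b. With each nucleus weighted equally only Cdkn1a was higher in 6 of 6 samples (ratio of 1.40), while Mdm2 (1.73), Ccng1 (1.57) and Zmat3 (1.64) were higher in 5 of 6 and Gadd45b (1.21) in 2 of 6, and the targets were 5 of 27 (median ratio of 1.13), against 2.95% of all genes. Without the shared barcodes, which left 8 nuclei of cluster 7 in SCM replicate 1, they were 2 of 10 members and 9 of 27 targets, against 5.67%. The ratios moved less here, and were 2.11 for Ccng1, 2.38 for Zmat3 and 1.91 for Gadd45b, each still higher in 5 of 6 samples, and the median ratio of the targets was 1.502, against 1.42. With QCM samples alone 7 of 10 members and 17 of 27 targets were higher in 3 of 3 samples, and with SCM samples alone 7 and 18, against 14.9% and 14.2% of all genes. Doublets were not marked in these data, and their part in the difference was not tested.

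Outside cluster 7 the estimates between the media were nearer to 0 for Mdm2, Zmat3 and Ccng1. Without the nuclei of cluster 7, which held 16.4% of the UMIs of SCM replicate 2 and 7.93% of those of SCM replicate 3 but 2.84% to 3.82% in the other samples, the log2 fold change over all nuclei was 0.19 for Mdm2, 0.12 for Zmat3 and -0.0079 for Ccng1. That of Cdkn1a was -0.50, farther from 0 than with cluster 7.

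The sequence before the start of the genes was searched for the p53 consensus decamer, of which p53 usually binds a pair. The search was made after 7 of the members were seen to be highest in the same cluster. The members were named as genes of the p53 response, so matches among them cannot bear on their levels in that cluster. RefSeq windows of 300 bases on GRCm38.p6, 250 before to 50 after a start, were at hand for 9 of the 10 members. These 9 members had 13 windows, and the decamer was found on either strand in 4 of the 13 (30.8%), 1 each of Trp53, Cdkn1a, Mdm2 and Ccng1, and in 8.36% of all 32851 windows. Only Cdkn1a had a pair of decamers close together, as had 0.0731% of all windows. The matches are printed here with 10 bases on each side, written 5′ to 3′ on the strand of the gene, with the decamer in capitals.

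Trp53, chr11:69580274-69580303, plus strand: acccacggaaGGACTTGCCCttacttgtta
Cdkn1a, chr17:29090896-29090925, plus strand: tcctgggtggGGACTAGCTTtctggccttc
Cdkn1a, chr17:29090918-29090947, plus strand: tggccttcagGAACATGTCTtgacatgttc
Mdm2, chr10:117710925-117710954, minus strand: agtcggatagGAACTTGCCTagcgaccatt
Ccng1, chr11:40755452-40755481, minus strand: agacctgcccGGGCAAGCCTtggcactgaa

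All 5 matches lay before the start that their own window covers. The Cdkn1a pair began at -73 and -51 bases from that start, and those of Trp53, Mdm2 and Ccng1 at -75, -186 and -185 bases. The other window of Cdkn1a, around a start further downstream (chr17:29093519-29093818), held no match. The windows of Cdkn2a, Cdkn2b, Gadd45b, Bbc3 and Fas held no match, and Zmat3 had no window. A match is a run of letters and no measured binding, and a window without one says only that these letters are not in it.

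The genes most like 3 of the members over 13 clusters were found among 10248 genes with a mean of at least 10 CPM, by Pearson's r of log2(CPM + 1), as a description with no test. For Cdkn1a they were Prr13 (0.911), Anxa5 (0.911), Nfe2l1 (0.909), Tprgl (0.901) and Lgals3 (0.901). For Mdm2 they were Iqgap1 (0.928), Ifrd1 (0.918), Cdh1 (0.914), Elk3 (0.907) and Palld (0.898). For Ccng1 they were S100a11 (0.925), Krt18 (0.922), Jund (0.920), S100a6 (0.912) and Ccnd1 (0.906). No gene stood in more than one of these 3 lists.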

How the data were processed

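Nuclei of 6 organoid samples (3 QCM, 3 SCM, grouped by the labels) were sequenced in droplets from the 3′ end of transcripts. The authors aligned reads to mm10 with CellRanger (2.1.1 in the submitters' processing notes), removed nuclei with outlying mitochondrial share, read total or number of features, and deposited raw UMI counts per gene and nucleus and a cluster number per nucleus. Symbols and positions were taken from GENCODE M21 on GRCm38, and promoter windows from RefSeq.

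The UMIs of all nuclei of a sample were added up, and so were those of each cluster (at least 10 nuclei in a sample, at least 2 such samples per medium). They were tested with edgeR 4.0.16 (TMM, filterByExpr with a minimum count of 10, glmQLFit and glmQLFTest) in R 4.3.3, with Benjamini-Hochberg adjustment over all genes tested and a threshold of 0.05. An SE in the edgeR fits is the absolute log2 fold change divided by the square root of the F statistic of the test. The 95% intervals were built from these SEs and the t distribution, and are not a direct output of the fit. DESeq2 1.42.0, voom with limma 3.58.1 and other alternatives are given in the closing section. Nothing in the labels says that the samples of a medium came from separate mice, so p-values measure the spread between these samples, which may be technical. On simulated data with the real means and library sizes, a 4-fold change was called by edgeR for 43% and a 2-fold change for 4% of the altered genes over all nuclei, and for 81% and 23% within cluster 0. In the same fits 3 unaltered genes over all nuclei and 20 within cluster 0 were also called.

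The genes, lists and markers were chosen with earlier results of these data known. List members were named where called, and otherwise up to 4 per list by mean CPM, with exceptions stated. Doublets were not called or removed. Mitochondrial genes were not analysed here.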

Additional observations from a re-analysis of the deposited data

How the results depend on the processing

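Under every alternative, leaving out single samples included, 0 members were called over all nuclei and 0 member and cluster pairs within clusters. Over all nuclei 0 genes were called, except 21 by DESeq2. Within clusters 0 gene and cluster pairs were called, except 39 by DESeq2, 5 with scaling by library size alone, 3135 with no filter on low counts, and 0 to 32 on leaving out single samples (32 without QCM replicate 2), and 248 with the replicate number as a block, where 0 genes were called over all nuclei. The same-numbered samples deviated from their group means with correlations of 0.30, 0.52 and -0.085, and differently numbered samples with correlations from -0.47 to 0.089. Whether the numbers pair the samples could not be decided from these values, and the main fit did not pair them. The cause of the differences between the alternatives was not tested.

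The direction of 8 of the 10 estimates over all nuclei turned under at least one alternative, and those of Mdm2 and Zmat3 under none. In a fit that also held each sample's ribosomal protein share, the log2 fold changes were 0.0024 for Trp53, 0.33 for Cdkn1a, -0.23 for Cdkn2a, 0.12 for Cdkn2b, 0.14 for Bbc3 and 0.26 for Fas. With replicates 2 and 3 alone they were 0.036 for Trp53, 0.022 for Cdkn1a, 0.13 for Cdkn2b, 0.060 for Gadd45b, 0.17 for Bbc3 and 0.22 for Fas. With library size alone Bbc3 was at 0.045, below the median over all genes of 0.14. Ccng1 was at -0.077 without the nuclei of highest UMI totals, -0.0079 without cluster 7 and -0.10 with clusters weighted equally. On leaving out single samples the estimates ranged from -0.35 to 0.031 for Trp53, -0.43 to 0.067 for Cdkn2b, -0.32 to 0.13 for Bbc3, -0.46 to 0.26 for Fas, -0.66 to -0.10 for Cdkn1a, -0.13 to 1.67 for Cdkn2a and -0.012 to 0.40 for Ccng1. 

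Without the nuclei of highest UMI totals the cluster 7 means were 63.3 CPM for Cdkn1a and 52.5 CPM for Ccng1. The members higher in cluster 7 in every sample were then 2, against 5, with a median ratio over the members of 1.38, against 2.22. They were 2 without the shared barcodes (median ratio of 2.08), 1 with nuclei weighted equally (1.51) and 3 without both the nuclei of highest UMI totals and SCM replicate 1. The p53 targets were 3, 9, 5 and 6 under the same choices, against 15, and the share of all genes was 2.42%, 5.67%, 2.95% and 4.17%, against 6.87%. On leaving out single samples the members were 5 to 7, the targets 15 to 17 and the share of all genes 7.24% to 11.5%. The choices about shared barcodes, cluster 7 and nuclei weights were made after seeing the data. Cdkn2a, with 62 UMIs in all, had the widest interval of the 10 members. Low depth also limits every value that rests on the 430 nuclei of SCM replicate 1.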
